A study of Homo sapiens with 3 samples.

Results

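The 42 genes described here act in DNA replication and in the S phase of the cell cycle. They were taken as a list of symbols by known role, drawn up with earlier results of these data known, and all 42 were found among the 43913 genes of the deposited tables. They fall into 5 roles: licensing and the replicative helicase (13 genes), polymerases with their clamp and clamp loader (11), nucleotide supply (5), lagging-strand processing, uracil repair and single-strand binding (6), and S-phase entry, the replication checkpoint and chromatin (7).

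The study compared multiple myeloma cells with bone marrow stromal cells, alone and together. MM.1S is a human multiple myeloma cell line and HS-5 a human bone marrow stromal cell line, each a single established line and thus 1 genetic background. Drop-seq, which captures the poly(A) RNA of single cells on barcoded beads and counts molecules as unique molecular identifiers (UMIs), was applied to MM.1S in monoculture, to HS-5 in monoculture and to both lines after 4 h of coculture, the time given in the labels (a legend in the study gives a shorter one). No drug or cytokine was added in these 3 libraries. With 1 library per condition there was no replicate, so no test between conditions was possible, and every interval below is a 95% interval that covers counting error only.

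Each origin of replication is licensed in G1, when CDC6 and CDT1 load the ring of MCM2 to MCM7 onto DNA and geminin (GMNN) later prevents a repeat. In S phase CDC45 and the GINS complex turn that ring into the active helicase, and polymerases held by the PCNA clamp copy both strands with nucleotides made by ribonucleotide reductase (RRM1, RRM2), thymidylate synthase (TYMS) and their partners. Many of these genes are transcribed under E2F factors, which cyclin E and its kinase release from RB proteins, so the list is widely used as a sign of cells in or near S phase.

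The tables held 3994, 3865 and 3963 barcodes for MM.1S, HS-5 and coculture, with 10433182, 6143448 and 3981392 UMIs, and cells with at least 200 genes were kept. Cells of the coculture were assigned by genes that differed at least 50-fold between the monocultures, 53 for MM.1S and 161 for HS-5, with the 42 genes kept out. This gave 1644 MM.1S and 2105 HS-5 cells, while 107 cells (2.77%) with both signals were left out. The median UMIs per cell were 2201 in MM.1S monoculture, 669 in MM.1S coculture, 971.5 in HS-5 monoculture and 957 in HS-5 coculture, so the MM.1S comparison joins cells of very different depth. Between 39 and 76 barcodes were shared by each pair of libraries, and HS-5 RNA made up 1.55% of the UMIs in cocultured MM.1S cells against 0.683% of MM.1S RNA in cocultured HS-5 cells. The lines matched their labels by IGLC2 (36552 CPM in MM.1S and 0 in HS-5 monoculture), JCHAIN and MZB1, and by COL1A1 (498 CPM in HS-5 and 1.63 in MM.1S), COL6A1 and SPARC. Of the 12 markers chosen for each line, CD79A was at or near 0 in all groups, and LUM, TAGLN and COL3A1 were under 5 CPM in HS-5. FN1 (810.3 and 252 CPM) and CAV1 (457 and 356 CPM) had more in MM.1S than in HS-5 monoculture, and SDC1 (38.1 and 135 CPM) had less.

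The letters of E2F sites stood in 39.2% of the promoter windows of these genes and in 3.31% of promoters at large. RefSeq windows of 250 bases before and 50 after a transcription start (build GRCh38.p14) were found for 36 of the 42 genes, as 51 windows; MCM4, MCM5, POLD3, CCNE2, RPA2 and RPA3 had none. On either strand, TTTCCCGC, TTTCGCGC, TTTGCCGC or TTTGGCGC stood in 20 of the 51 windows, covering 19 genes, the comparison being with all 35116 windows. CCAAT, the box bound by NF-Y, stood in 29 windows (56.9%) against 34.6% of all, and the CHR letters TTTGAA or TTCGAA, known from genes of mitosis, stood in 4 (7.84%) against 16.4%. A match is a run of letters and not a measured binding site. The stretches just before the start are shown for PCNA, MCM6 and GINS2, as clamp and helicase genes with E2F letters. RRM2, MCM10, CLSPN and CHAF1A follow, as 4 of the 5 genes at least 2-fold higher in cocultured MM.1S cells. Each holds more than 1 CCAAT box, but so do CDC6 and MCM3, which stayed below 2-fold. POLD1, the other of the 5, had no CCAAT, whereas TK1, the gene at least 2-fold lower, had it. A link between the box and the ratios was not tested. Capitals mark the E2F letters in the first 3 and CCAAT in the others, each on either strand (overlapping matches run together).
PCNA: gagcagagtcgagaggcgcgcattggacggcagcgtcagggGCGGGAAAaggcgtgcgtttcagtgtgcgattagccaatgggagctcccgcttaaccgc
MCM6: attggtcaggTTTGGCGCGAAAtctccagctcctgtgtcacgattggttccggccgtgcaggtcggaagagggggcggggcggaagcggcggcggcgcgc
GINS2: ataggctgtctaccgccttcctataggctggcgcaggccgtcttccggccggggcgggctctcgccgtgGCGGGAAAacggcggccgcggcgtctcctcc
RRM2: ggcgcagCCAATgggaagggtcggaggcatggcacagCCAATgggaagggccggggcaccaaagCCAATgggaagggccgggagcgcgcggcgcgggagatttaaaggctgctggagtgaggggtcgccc
MCM10: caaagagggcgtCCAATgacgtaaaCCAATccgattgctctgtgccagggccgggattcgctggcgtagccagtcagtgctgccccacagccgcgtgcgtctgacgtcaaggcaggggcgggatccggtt
CLSPN: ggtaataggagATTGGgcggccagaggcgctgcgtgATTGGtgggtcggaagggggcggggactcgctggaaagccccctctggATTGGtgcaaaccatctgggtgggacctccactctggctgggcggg
CHAF1A: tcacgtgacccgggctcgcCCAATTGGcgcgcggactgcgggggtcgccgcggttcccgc

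On the plus strand these stretches lie at chr2:10122609-10122738 (RRM2), chr10:13161428-13161557 (MCM10) and chr19:4402580-4402639 (CHAF1A). On the minus strand they lie at chr20:5126623-5126722 (PCNA), chr2:135876444-135876543 (MCM6), chr16:85688955-85689054 (GINS2) and chr1:35769979-35770108 (CLSPN). The 3 CCAAT boxes of RRM2 stand in near-repeats, and the boxes of CHAF1A overlap as 1 palindrome. Members with and without E2F letters had median log2 ratios of coculture over monoculture of 0.52 (19 genes) and 0.41 (16 genes) in MM.1S, and of 0.06 and -0.03 in HS-5. Between the lines the median log2 ratio of HS-5 over MM.1S was -0.20 for the 19 genes with the letters and 0.61 for the 17 without.

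Levels are given as CPM, the UMIs of a gene per 1000000 UMIs of the group, which are not divided by length and so are compared between groups and not between genes. The median of the 42 genes was 54.5 CPM in MM.1S monoculture, 71.8 in MM.1S coculture, 68.5 in HS-5 monoculture and 76.5 in HS-5 coculture. Summed, they took 3737 and 4336 CPM in MM.1S and 4530 and 4563 CPM in HS-5, alone and in coculture. In such sums more cells in S phase and more RNA per cell cannot be told apart. In MM.1S monoculture single genes ran from 3.07 CPM (CCNE2) to 927 CPM (DUT), and 3 UMIs were worth 2.26 CPM in cocultured MM.1S cells, the shallowest group.

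In monoculture the 2 lines differed most in genes of S-phase entry and chromatin. Of the 42 genes, 10 were at least 2-fold higher in HS-5 than in MM.1S and 1 was at least 2-fold lower, against 38.1% and 15.3% of the 8734 genes whose mean reached 10 CPM. The share of higher genes was thus below that of all genes. Their median log2 ratio, computed with a pseudocount of 1 CPM, was 0.40, against 0.56 over all genes. The interval lay above 0 for 25 members and below 0 for 14, against 59.5% and 28.7% of all genes. The level of all genes moves with the scaling here: under median-of-ratios or TMM factors the medians of the members were -0.06 and -0.06. By sign 27 members were above 0, against 5764 of the 8734 genes, and 19 of the 27 were above 0 under all 4 scalings tried. Line, medium and library cannot be told apart in this comparison.

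The S-phase entry and chromatin group stood highest, with a median log2 ratio of 2.24 and 6 of its 7 genes at least 2-fold higher in HS-5. Cyclin E1 (CCNE1), which activates CDK2 at the G1/S border, had 3.64 CPM (2.58 to 5.0) in MM.1S and 32.4 CPM (28.1 to 37.2) in HS-5. Cyclin E2 (CCNE2) had 3.07 and 18.2 CPM, with 1629 exon bases shared with INTS8 on the other strand. The intervals of the lines did not overlap for either cyclin, while over all genes the interval of the ratio lay above 0 for 59.5%. CHAF1A and CHAF1B, subunits of the chromatin assembly factor that places histones behind the fork, had 28.0 and 9.68 CPM in MM.1S and 184 and 46.2 CPM in HS-5. UHRF1, which brings DNA methylation to newly copied DNA, had 10.7 and 57.8 CPM. CLSPN (claspin), the checkpoint mediator that activates CHK1, had 70.0 and 332 CPM. SLBP, which binds the stem-loop of histone mRNAs, was the exception below 2-fold, at 104 and 159.5 CPM.

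Nucleotide supply was split between the lines. RRM1 and RRM2, the large and small subunits of ribonucleotide reductase, had 42.1 and 47.6 CPM in MM.1S and 319 and 281 CPM in HS-5, log2 ratios of 2.89 (2.77 to 3.08) and 2.54 (2.42 to 2.71). DUT, which removes dUTP, went the other way, with 927 CPM (909 to 946) in MM.1S and 369 CPM (354 to 384) in HS-5, a log2 ratio of -1.33. TK1, the thymidine salvage kinase, had 111 and 68.7 CPM, and TYMS had 82.0 and 68.4 CPM. The intervals of the 2 lines did not overlap for any of these 5 genes. Such differences were common: over all genes the interval of the ratio lay above 0 for 59.5% and below 0 for 28.7%. Over all genes the log2 ratio also rose with transcript length, from a median of -0.06 in the shortest of 4 classes to 1.07 in the longest. With this trend removed TYMS moved from -0.26 to 0.39 and TK1 from -0.69 to -0.05. RRM1 (2.98), RRM2 (2.32) and DUT (-0.85) kept their directions.

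The helicase genes were close by comparison. MCM3 had 161 CPM in MM.1S and 135 CPM in HS-5, and MCM4 had 108 and 138 CPM. MCM2 (65.8 and 91.7 CPM), MCM5 (29.6 and 55.2 CPM) and MCM6 (93.1 and 149 CPM) were higher in HS-5, and MCM7 (165 and 85.3 CPM) was lower. The 6 subunits of 1 ring thus differed between the lines in both directions, with log2 ratios from -0.95 (MCM7) to 0.88 (MCM5). CDC45, the helicase cofactor, was the single gene of this role past 2-fold, at 12.1 and 40.7 CPM. PCNA had 150.2 CPM in MM.1S and 129 CPM in HS-5, and RFC1, the large subunit of the loader that opens the clamp, had 102 and 405 CPM. RFC4, a small subunit of the same loader, had 98.5 and 59.4 CPM. With the length trend removed the log2 ratio of PCNA moved from -0.22 to 0.58 and that of RFC4 from -0.72 to -0.07. MCM7 stayed lower, at -0.87, and RFC1 stayed higher, at 1.70. LIG1, which seals lagging-strand fragments, and FEN1, which trims their flaps, were lower in HS-5, with log2 ratios of -0.92 and -0.52. FEN1 shares 166 exon bases with TMEM258 on the other strand, at 2122 CPM in MM.1S and 262 CPM in HS-5. It shares 49 with FADS2 on the same strand, at 248 and 16.9 CPM. Whether these overlaps had a part in the FEN1 value was not tested.

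**Figure D1:**
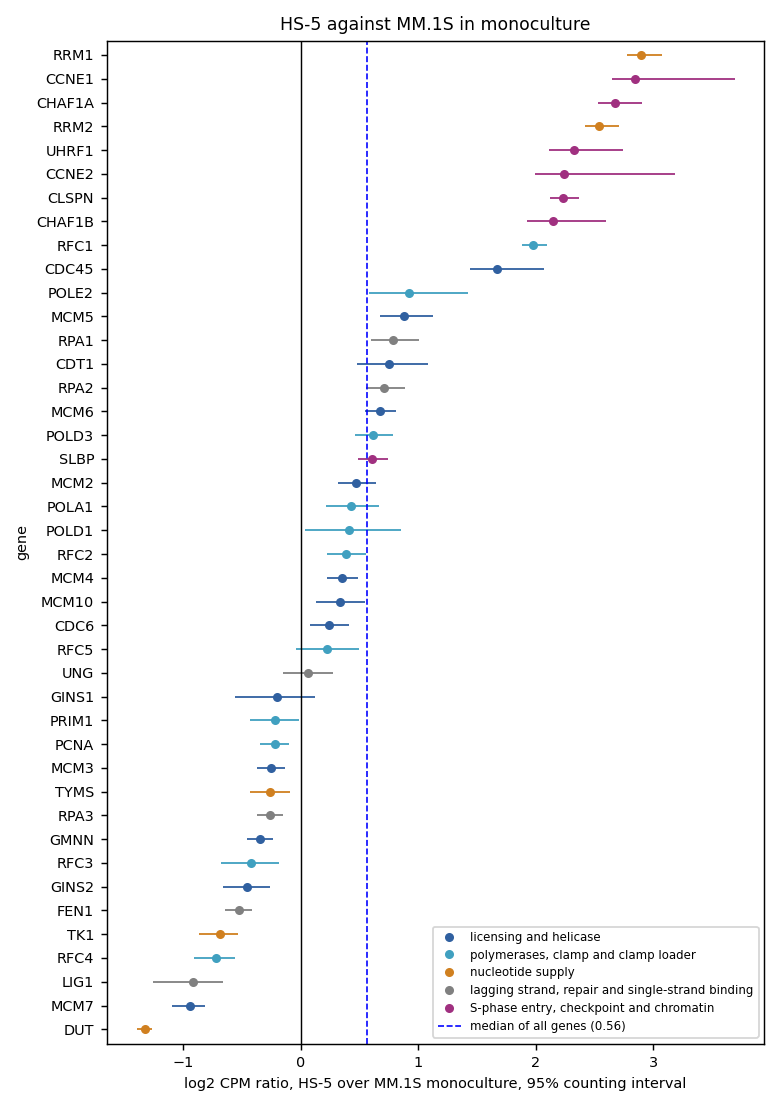
Log2 ratio of CPM, HS-5 over MM.1S monoculture, for the 42 genes in order, coloured by role, with 95% counting intervals (computed without the pseudocount) and the median of all genes (0.56). RRM1 (2.89) and CCNE1 (2.85) are at the top and DUT (-1.33) at the bottom, and 6 of the 7 S-phase entry and chromatin genes are among the top 10.

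Genes of the E2F and RB pathway, which acts upstream, spread widely between the lines. E2F1, the activating E2F factor, had 2.68 CPM in MM.1S and 43.5 CPM in HS-5 monoculture, E2F7 had 9.11 and 95.2 CPM, CCNA2 (cyclin A2) 28.9 and 138 CPM, and RBL2 (the pocket protein p130) 38.8 and 7.0 CPM. Of the 15 genes of the E2F, RB and S-phase kinase list that reached that mean, 6 (40.0%) were at least 2-fold higher and 1 (6.67%) lower, near or below the 38.1% and 15.3% of all genes. RB1 (0.03) and ATR (-0.37) were, beside RBL2, the lowest on the log2 scale. The list of 41 other replication factors had a median of 0.67 over 38 genes and 34.2% at least 2-fold higher, with MCMBP (2.94), WDHD1 (2.09) and TOP1 (2.00) highest and ORC5 (-1.92), RNASEH2B (-1.16) and RNASEH2C (-1.13) lowest. The 30 mitosis genes had a median of 1.59, with 21 (70.0%) at least 2-fold higher, and CENPE, a mitotic kinesin, had 42.1 CPM in MM.1S and 1185 CPM in HS-5. UBE2C (7.44, with 0.958 CPM in MM.1S) and MKI67 (4.26) stood beside CENPE (4.78) at the top, and CCNB2 (-0.42), BUB1 (-0.33) and CKS2 (0.05) at the bottom. Of the histone genes HIST1H2AC (-2.06), HIST1H1C (-1.56), HIST1H1E (-1.29), HIST1H1D (-0.17) and HIST1H4C (-0.16) were all below 0. Here and below, 5 of the 10 histone genes listed reached that mean. Poly(A) capture leaves out any histone mRNA without a poly(A) tail, so these values may not follow total histone mRNA. Reference genes ran from GUSB (-2.81), B2M (-2.53) and PGK1 (-2.19) to CALM2 (1.07), TFRC (1.33) and POLR2A (2.69). The median of the 42 replication genes was 0.40, and the difference between the lists was not tested.

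In MM.1S cells 12 of the 13 licensing and helicase genes were higher in coculture by total UMIs but 6 of 13 by TMM factors. Several genes of nucleotide supply and the lagging strand were lower by total UMIs, and TMM moved the ratios of all members further down. The mean reached 10 CPM for 40 of the 42 genes, all but CCNE1 and CCNE2. Of the 40, 5 were at least 2-fold higher and 1 at least 2-fold lower, against 19.1% and 5.85% of 7833 genes. The interval was above 0 for 23 and below 0 for 6, against 40.4% and 19.3% of all genes. The median log2 ratio was 0.45, and the median over all genes was itself shifted to 0.24. Under TMM factors both moved down, to -0.05 for the members and -0.28 for all genes. A scaling shifts all log2 ratios nearly alike, so the gap between members and all genes (0.21 by total UMIs, 0.23 by TMM) could hardly change. By sign, 31 of the 40 genes were above 0, against 4856 of the 7833 genes, and 16 of the 31 were above 0 under all 4 scalings. Total UMIs gave the highest ratios of the 4 scalings, so the 9 genes below 0 could only stay below 0 under the others. With the trend over transcript length removed 4 of the 9 turned positive: RFC2 (0.37), RFC3 (0.22), CDC45 (0.13) and RPA2 (0.02).

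By total UMIs the interval lay above 0 for 11 of the 13 licensing and helicase genes, and their median was 0.50. Above 0 were 7 of 13 with median-of-ratios factors and 6 with TMM, under which GINS2 (-0.49), CDC6 (-0.13) and GMNN (-0.13) joined the genes below 0. MCM6 had 93.1 CPM (87.3 to 99.1) in monoculture and 183 CPM (161 to 207) in coculture, and MCM7 had 165 and 257 CPM. MCM2 had 65.8 and 107 CPM, MCM3 161 and 211 CPM, MCM4 108 and 153 CPM, and MCM5 29.6 and 41.4 CPM. The intervals of the 2 cultures did not overlap for MCM2, MCM3, MCM4, MCM6 and MCM7, while over all genes the interval of the ratio lay above 0 for 40.4%. The log2 ratios of MCM3, MCM4 and MCM5 (0.39, 0.50 and 0.47) turned slightly negative under TMM, whereas those of MCM2 (0.69), MCM6 (0.97) and MCM7 (0.63) stayed above 0. MCM10, which helps the helicase to start, had 43.0 and 96.3 CPM, a log2 ratio of 1.14 (0.87 to 1.45).

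The highest ratios were those of CHAF1A, POLD1 and CLSPN. CHAF1A had 28.0 CPM (24.9 to 31.4) in monoculture and 89.5 CPM (74.2 to 107) in coculture, a log2 ratio of 1.64 (1.36 to 1.99). It shares 20 exon bases with UBXN6 on the other strand, which had 13.5 and 31.6 CPM. CLSPN had 70.0 and 162 CPM, a log2 ratio of 1.20. The other S-phase entry and chromatin genes that reached 10 CPM, UHRF1 (0.52), CHAF1B (0.44) and SLBP (0.44), were near the median of the members. POLD1, the catalytic subunit of polymerase delta, had 11.1 and 33.1 CPM, a log2 ratio of 1.49 (1.04 to 2.09). PCNA, the clamp that holds this polymerase, had 150.2 CPM (143 to 158) and 262 CPM (235 to 291). For CHAF1A, CLSPN, POLD1 and PCNA the coculture interval lay wholly above the monoculture interval. Over all genes the interval of the ratio lay above 0 for 40.4%.

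Nucleotide supply was divided in MM.1S as well. RRM2 had 47.6 CPM in monoculture and 100.04 CPM in coculture, RRM1 42.1 and 75.2 CPM, and TYMS 82.0 and 121 CPM. TK1 had 111 CPM (105 to 118) and 42.1 CPM (31.8 to 54.7), a log2 ratio of -1.38. DUT had 927 CPM and 570.2 CPM (530 to 612), a log2 ratio of -0.70. DUT held 927 of the 1210 CPM of this role in monoculture and 570.2 of the 909 CPM in coculture, so the sum was lower in coculture although 3 of the 5 genes were higher.

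The lower genes also included RPA3 and RPA2, small subunits of the single-strand binding complex RPA, PRIM1, the catalytic primase subunit, and LIG1. RPA3 had 206 and 123 CPM, PRIM1 53.4 and 30.1 CPM, RPA2 55.7 and 42.1 CPM, and LIG1 38.8 and 26.3 CPM. Their log2 ratios were -0.75, -0.81, -0.39 and -0.54, and the intervals of the 2 cultures overlapped for RPA2 and LIG1 but not for RPA3 and PRIM1. Over all genes the interval of the ratio lay below 0 for 19.3%. PRIM1 shares 33 exon bases with NACA on the same strand (1218 and 1014 CPM). RPA1, the large subunit, had 37.6 and 39.1 CPM. FEN1 had 203 and 264 CPM, but shares 166 exon bases with TMEM258 on the other strand (2122 and 1675 CPM), and how strand was treated in counting is not given in the sources used here.

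**Figure D2:**
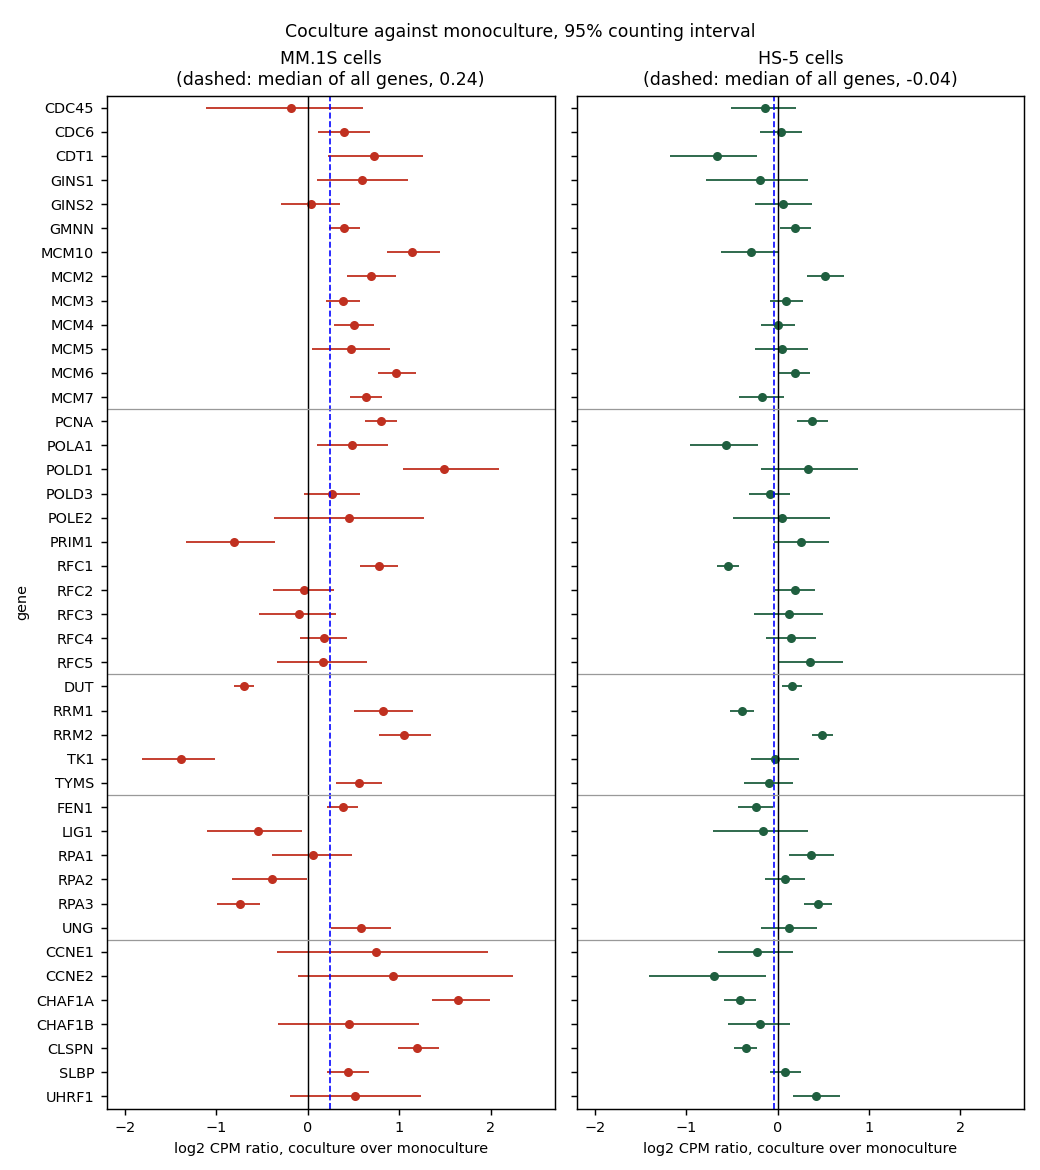
Log2 ratio of CPM, coculture over monoculture, in MM.1S (left) and HS-5 cells (right), with 95% counting intervals, the median of all genes dashed (0.24 and -0.04) and roles separated by lines. MM.1S values spread from -1.38 (TK1) to 1.64 (CHAF1A), and HS-5 values from -0.69 (CCNE2) to 0.52 (MCM2).

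Companion lists in MM.1S were mixed. Of the other replication factors, 6 of 36 (16.7%, against 19.1% of all genes) were at least 2-fold higher and 0 at least 2-fold lower, with TOP1 at 138 and 653 CPM, MCMBP at 12 and 43.6 CPM and POLE, the leading-strand polymerase, at 5.18 and 16.5 CPM. POLD2 (-0.78), ORC3 (-0.77) and RNASEH2B (-0.70) were lowest. In the E2F, RB and S-phase kinase list 5 of 15 genes (33.3%) were at least 2-fold higher and 2 (13.3%) at least 2-fold lower, against 19.1% and 5.85% of all genes. The median log2 ratio of this list was 0.67. Highest were CDC25A, the phosphatase that activates CDK2 (13.8 and 74.5 CPM), E2F4 (27.3 and 86.5 CPM) and E2F2 (10.7 and 34.6 CPM). Lowest were RBL2 (38.8 and 8.27 CPM), TFDP2 (34.9 and 10.5 CPM) and CDK2 (27.3 and 17.3 CPM). The mitosis list had a median of -0.20 with HMGB2 (-1.48), NUSAP1 (-1.24) and CCNB2 (-1.20) lowest and MKI67 (1.05), TACC3 (0.84) and KIF20B (0.70) highest. The linker histone genes HIST1H1D (124 and 8.27 CPM) and HIST1H1E (119 and 9.03 CPM), with HIST1H1C (-1.17) and HIST1H2AC (-2.02), were lower, whereas HIST1H4C (1552 and 2011 CPM) was not. The limit of poly(A) capture holds for these histone values too. The reference list of 19 genes had a median of -0.18, with GAPDH (-1.54) and SDHA (-1.13) lowest and TFRC (1.79), TUBB (0.67) and YWHAZ (0.61) highest.

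In HS-5 cells no gene of the 42 passed 2-fold in either direction in coculture, against 1.2% higher and 1.83% lower of 8813 genes. The mean reached 10 CPM for each of the 42, and their median log2 ratio was 0.05, against -0.04 over all genes. The interval was above 0 for 10 and below 0 for 8, against 20.1% and 23.2% of all genes. The log2 ratio of the summed level was 0.01 (-0.02 to 0.04). By sign 24 were above 0, against 4104 of the 8813 genes, and 12 of the 24 were above 0 under all 4 scalings. TMM moved the median of all genes to -0.21 and that of the members to -0.13.

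Within that narrow range the interval of the ratio excluded 0 for some genes, above it for 10 of the 42 and below it for 8. Such intervals were about as common over all genes, at 20.1% above and 23.2% below 0. RRM2 had 281 CPM (268 to 295) in monoculture and 395 CPM (370 to 420) in coculture, and MCM2 had 91.7 and 132 CPM, with log2 ratios of 0.49 and 0.52. RPA3 (172 and 234 CPM), UHRF1 (57.8 and 77.5 CPM), PCNA (129 and 168 CPM) and RPA1 (65.6 and 84.8 CPM) were the next highest. RRM1, the partner of RRM2, had 319 and 244 CPM, a log2 ratio of -0.39 (-0.52 to -0.25), so the subunits of 1 enzyme differed in direction. RFC1 had 405 and 277 CPM, POLA1, the catalytic subunit of polymerase alpha, 47.7 and 31.9 CPM, CDT1 30.6 and 19 CPM, CCNE2 18.2 and 10.9 CPM, and CHAF1A 184 and 139 CPM. MCM3 to MCM7 lay between -0.17 (MCM7) and 0.18 (MCM6), and TYMS was at -0.10. The S-phase entry and chromatin group had the lowest median of the 5 roles, -0.23.

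Among companions in HS-5, the mitosis list had a median of -0.09, with 9 intervals above and 12 below 0. CENPE (1185 and 520 CPM), CENPF (1836 and 823 CPM) and MKI67 (-0.69) were lowest and PTTG1 (0.79), CCNB2 (0.56) and UBE2C (0.42) highest. The summed level was 11636 CPM in monoculture and 9132 CPM in coculture. E2F1 had 43.5 and 28.3 CPM, E2F3 64.5 and 42 CPM and CDC25A 46.1 and 26.3 CPM, while ATR (0.36), WEE1 (0.34) and CHEK1 (0.07) were the highest of that list, whose median was -0.07. Of the other replication factors, CHTF18 (-0.96), MCM8 (-0.52) and DNMT1 (-0.52) were lowest and ASF1A (0.71), GINS3 (0.49) and ORC1 (0.38) highest. HIST1H1D had 110.1 and 20.6 CPM and HIST1H4C 1391 and 2717 CPM, and HIST1H1E (-2.31), HIST1H1C (-0.47) and HIST1H2AC (-0.35) lay below 0. Reference genes ran from EEF2 (-0.40), PPIA (-0.08) and TBP (-0.04) to B2M (0.74) and VPS29 (0.78).

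Depth and transcript length moved with these ratios. In MM.1S monoculture the summed level of the 42 genes was 1824 CPM in cells of 500 to 1000 UMIs, 2555 CPM in cells of 1000 to 2000 and 4118 CPM in deeper cells. MM.1S coculture had 3707 CPM in cells under 500 UMIs and 3980 CPM in cells of 500 to 1000. It had 5016 CPM in cells of 1000 to 2000 and 4495 CPM in deeper cells. In HS-5 monoculture the sum lay between 4423 and 4697 CPM in all 4 depth classes. Among cells of 1000 to 3000 UMIs, a range chosen after the data were seen, the sum was 3009 CPM (2962 to 3057) in 2737 MM.1S monoculture cells and 4941 CPM (4752 to 5135) in 366 MM.1S coculture cells. This range does not match depth. It keeps 2737 of 3947 monoculture but only the deeper 366 of 1644 coculture cells, with medians of 1851 and 1321 UMIs. In that range 16 of 40 members were at least 2-fold higher and 0 lower, against 21.5% and 7.46% of 7770 genes, and the median was 0.83 against 0.29 over all genes. The HS-5 sums in that range were 4648 and 4681 CPM. Split into 4 classes of transcript length, all genes had MM.1S medians from -0.13 in the shortest class to 0.51 in the longest, and the members had -0.04, 0.59 and 0.51 in the first 3 classes (13, 12 and 14 genes). In HS-5 the medians of all genes ran from 0.17 in the shortest class to -0.16 in the longest. For HS-5 over MM.1S in monoculture they ran from -0.06 to 1.07. With the length trend removed the members' median was 0.54 in MM.1S and -0.03 in HS-5. Whether depth or RNA quality had a part in the ratios was not tested.

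**Figure D3:**
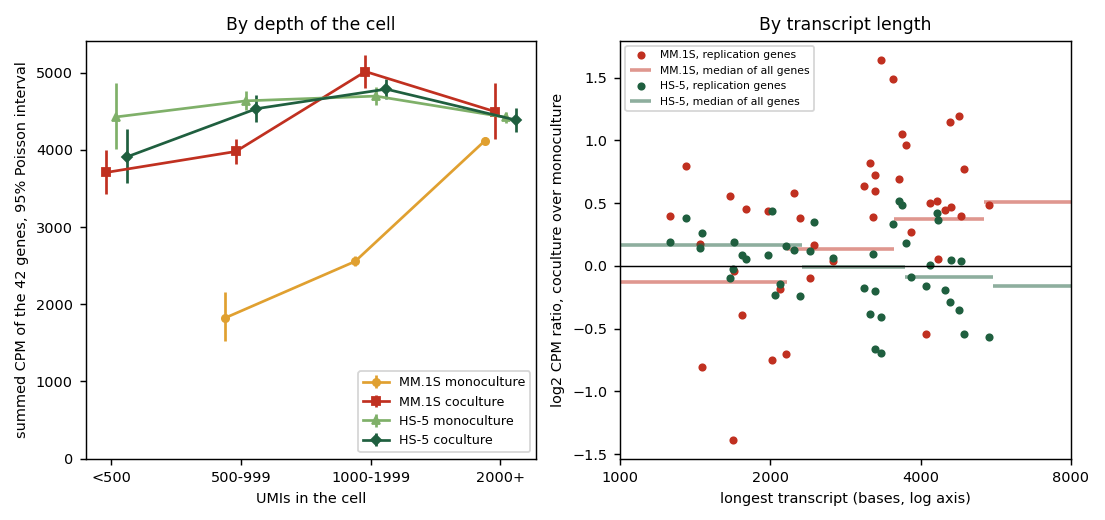
Left, summed CPM of the 42 genes by depth class of the cell with 95% Poisson intervals; right, log2 ratio of coculture over monoculture against the longest annotated transcript, with bars for the median of all genes in each of 4 length classes. MM.1S monoculture climbs from 1824 to 4118 CPM with depth, and the medians of all genes run in opposite directions with length in the 2 lines.

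To compare single cells, each was thinned to 500 UMIs, which left out 447 MM.1S and 301 HS-5 coculture cells and 217 HS-5 monoculture cells. A cell then held on average 1.65 UMIs of the 42 genes in MM.1S monoculture, 2.17 in MM.1S coculture, 2.33 in HS-5 monoculture and 2.34 in HS-5 coculture. Cells with at least 3 such UMIs made up 26.3% (24.9 to 27.7) of MM.1S monoculture and 35.8% (33.1 to 38.6) of MM.1S coculture, and 40.0% (38.4 to 41.6) and 39.7% (37.5 to 42) of HS-5. PCNA was seen in 5.85% of thinned cells in MM.1S monoculture and 11.9% in MM.1S coculture, DUT in 31.6% and 22.3%, in the direction of their CPM. The variance over the mean of the UMIs per cell was 1.79 and 1.79 in MM.1S and 1.41 and 1.498 in HS-5, against 1.23 to 1.32 for the reference genes. All these cells come from 1 library per culture, so the intervals say nothing of a second culture.

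Cells with more UMIs of some of the genes also held more of the others. Cells were grouped by their UMIs of the 13 licensing and helicase genes, and the other 29 genes were then counted. Cells with 2 or more such UMIs held 2.02 times (1.86 to 2.20) the UMIs of the other genes found in cells with 0 in MM.1S monoculture and 2.02 times (1.79 to 2.28) in MM.1S coculture. In HS-5 the folds were 1.37 (1.27 to 1.47) and 1.44 (1.30 to 1.58). Reference genes stayed between 0.933 and 1.01 in the same grouping. Cells with 2 or more of these UMIs made up 9.78% of MM.1S monoculture, 20.9% of MM.1S coculture, 11.2% of HS-5 monoculture and 13.7% of HS-5 coculture.

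Mitosis genes went in opposite directions in the 2 lines. Cells with 2 or more licensing and helicase UMIs held more mitosis UMIs than cells with 0 in MM.1S, 1.58 times (1.44 to 1.73) in monoculture and 1.69 times (1.46 to 1.95) in coculture. In HS-5 they held fewer, 0.539 times (0.510 to 0.570) and 0.575 times (0.530 to 0.622). HS-5 cells with 0 such UMIs held 6.57 mitosis UMIs of 500 in monoculture, against 3.54 in cells with 2 or more. In MM.1S monoculture the grouped cells also differed in depth before thinning, with medians of 2085 and 2569 UMIs, whereas in HS-5 monoculture these were 990 and 1060. Among cells of 1000 to 3000 UMIs thinned to 1000, the folds for mitosis were 2.64 and 1.42 in MM.1S and 0.469 and 0.496 in HS-5, in the same directions.

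For single genes the same was measured with each gene left out of the grouping. In MM.1S monoculture PCNA had 108 UMIs per 1000 cells in the 980 cells with 3 or more UMIs of the other 41 genes and 28.3 in the 1306 cells with 0, a fold of 3.82 (2.60 to 5.71). RRM2 had 41.2 and 4.70 UMIs per 1000 cells, a fold of 8.76. In HS-5 monoculture the folds were 1.96 for PCNA and 1.37 for RRM2. Over genes with at least 30 UMIs in the 2 sets of cells together, the median fold was 3.83 in MM.1S monoculture (32 genes), 3.96 in MM.1S coculture (21), 1.76 in HS-5 monoculture (35) and 1.84 in HS-5 coculture (28). The interval lay above 1 for 30 of 32, 20 of 21, 19 of 35 and 17 of 28 of these genes, and below 1 for 0, and UHRF1 in HS-5 coculture had the lowest fold, 0.960. Folds of single genes outside the replication list are not given here, so these counts are not set against a background. Whether they are particular to replication genes was not tested. The difference between the lines was not tested.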

How the data were processed

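Drop-seq libraries of MM.1S, HS-5 and their 4 h coculture (1 each) were analysed from the deposited UMI counts per gene and cell, which the authors left unnormalised. The submitters' processing notes name Cell Ranger 3.0.2, UMI-tools 1.0.0, STAR 2.5.3a, Subread, featureCounts 1.6.4 and SAMtools 1.9 with GRCh38. The annotation, strand setting and choice of barcodes are not given in the sources used here. Lengths and overlaps were taken from GENCODE release 29 (97.3% of genes matched) and promoters from RefSeq, neither of which is known to be the counting annotation.

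Cells with at least 200 genes were kept. Coculture cells were called MM.1S or HS-5 when HS-5 genes gave under 0.2 or over 0.8 of their UMIs from genes of at least 100 CPM and 50-fold difference between monocultures. Doublets were treated only by leaving out cells with both signals. Counts were summed per group and scaled to CPM. Log2 ratios used a pseudocount of 1 CPM, which understates the change of low genes, and intervals were exact (Poisson, conditional binomial without the pseudocount, Clopper-Pearson). Genes averaging 10 CPM or more were compared. UMIs were thinned with a fixed seed. Cells are not replicates, so no test was run. Depth was 10433182, 6143448 and 3981392 UMIs.

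Named genes were PCNA, MCM2 to MCM7, RRM1, RRM2, TYMS plus, in every comparison, the 6 members with the highest and the 6 with the lowest ratio, and the 3 highest and 3 lowest of each companion list, with others added where a role is described; 1 item that the rule names is not reported here. The members and lists were chosen with earlier results of these data known. Alternatives covered cell filters, scaling, pseudocount, expression minimum, weight per cell, line assignment, subtraction of RNA of the other line, thinning and length. Cells of 1000 to 3000 UMIs and the removal of shared barcodes were added after seeing the data. Python 3.11.15, numpy 2.4.6, scipy 1.17.1, pandas 2.3.3 and matplotlib 3.10.9 were used, and the scripts were tested on simulated data.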

Additional observations from a re-analysis of the deposited data

Results flagged for a closer look

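Of the 42 genes, 9 differed in direction between the lines in coculture against monoculture, with both counting intervals excluding 0. The share of all genes that meet the same rule is not given here, so the 9 are not set against a background. Over all genes, 40.4% of intervals lay above 0 and 19.3% below in MM.1S, and 20.1% and 23.2% in HS-5. With 1 library per condition the difference between the lines was not tested, and the values are log2 ratios of MM.1S minus those of HS-5. Higher in MM.1S and lower in HS-5 were 7 genes: CHAF1A (difference 2.0494), CLSPN (1.5486), CDT1 (1.385), RFC1 (1.3178), RRM1 (1.2084), POLA1 (1.051) and FEN1 (0.6189). Lower in MM.1S and higher in HS-5 were RPA3 (-1.1866) and DUT (-0.8614). The MM.1S values of POLA1 and FEN1 (0.49 and 0.38) turned negative under TMM factors (-0.04 and -0.15), and the HS-5 value of DUT (0.16) did too (-0.02). FEN1 shares exon bases with TMEM258 and FADS2.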

How the results depend on the processing

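No paired analysis was possible because each condition is 1 library and the labels give no shared replicate number. In MM.1S coculture against monoculture the members' median log2 ratio of 0.45 was -0.0021 with median-of-ratios factors, -0.0489 with TMM factors and 0.8269 in cells of 1000 to 3000 UMIs. The 5 genes at least 2-fold higher became 2, 1, 3 (totals without mitochondrial and ribosomal protein genes), 10 (thinned to 500 UMIs) and 16 (1000 to 3000 UMIs), the first 2 with those factors in the same order. They became 4 with RNA of the other line subtracted, and 4 with HS-5 share limits of 0.1 and 0.9. A minimum of 500 genes gave 6, and equal weight per cell gave 7. The 1 gene at least 2-fold lower became 0 (at least 500 genes), 5 and 5 (both factors), 2 (thinned), 0 (length trend removed) and 0 (1000 to 3000 UMIs). For HS-5 against MM.1S the median of 0.40 was -0.0552 and -0.0598 with the factors, 0.1429 without mitochondrial and ribosomal protein genes and 0.6399 at 1000 to 3000 UMIs. There the 10 higher genes were 5 at a minimum of 50 CPM, and the 1 lower gene was 3 (200 to 2500 genes and under 5% mitochondrial UMIs), 5 and 5 (factors), 3 (without mitochondrial and ribosomal protein genes) and 0 (length). For HS-5 coculture against monoculture the counts past 2-fold stayed at 0, but the members' median of 0.05 was -0.1297 with TMM factors and -0.0288 with the length trend removed, and with TMM factors the median of all genes was -0.21 and 12 members were above 0, against 24. The percent of cells with at least 3 member UMIs depends on depth by construction: at 1000 and 300 UMIs it was 50.7 and 11.9 in MM.1S monoculture, 75.7 and 16.7 in MM.1S coculture, 74.6 and 18.2 in HS-5 monoculture, and 75.2 and 17.5 in HS-5 coculture. It was 32.8 in MM.1S monoculture with the filter of 200 to 2500 genes, and 20.8 and 45.6 in MM.1S monoculture and coculture at 1000 to 3000 UMIs. The fold of the other members at 1000 UMIs was 2.6264, 1.7228 and 1.4714 in MM.1S monoculture, MM.1S coculture and HS-5 monoculture, and grouped by nucleotide supply it was 1.6649, 1.208 and 1.2836 in MM.1S coculture, HS-5 monoculture and HS-5 coculture. Of 2053 values of single genes under an alternative, 413 moved beyond the counting interval and 0 changed sign among called genes. Called genes differed at least 2-fold, whereas the scalings moved the members' medians by less than 2-fold. For the scalings this 0 could hardly have been otherwise, so no conclusion is drawn from it. Of the 31 members above 0 by total UMIs in MM.1S coculture against monoculture, called or not, 16 stayed above 0 under all scalings. Except where construction is named, the cause was not tested.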

Other observations

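The 107 coculture cells left out for carrying signals of both lines held 732 UMIs of the 42 genes, a summed level of 4309 CPM (4003 to 4633), which lies beside the 4336 CPM of MM.1S and 4563 CPM of HS-5 cells in coculture.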
